A study of Mus musculus with 24 samples.

Results

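Ifit1, Ifit2, Ifit3, Mx1, Mx2, Oas1a, Oas2, Oas3, Oasl1 and Oasl2 are interferon-induced antiviral effector genes, and their RNA was followed in mouse cells given an inflammatory supernatant. The 10 genes were chosen by name, as the probe sets whose platform gene symbol is one of them. Each was measured by exactly 1 probe set of a single symbol, so all 10 of 10 entered, out of 19938 genes on the array. RNA was hybridised to 24 Affymetrix whole-transcript arrays in 6 groups of 4, made of 3 kinds of cell with and without treatment. The epithelial line C57epi.1 was derived from C57BL/6 mice, from their upper reproductive tract. The line Bm12.4 was derived from that tissue of the B6(C)-H2-Ab1bm12/KhEgJ mouse, whose MHC class II beta chain is mutant. GM-CSF bone marrow derived macrophages came from the femurs of C57BL/6 mice. Control arrays of each kind had RPMI media with no treatment. Treated arrays had 33% (v/v) of a T cell conditioned medium, made by holding a CD4 clone specific for Chlamydia with an infected epithelial monolayer, with interferon-gamma brought to 4 ng/ml. All groups shared this growth medium with serum. Each line stands for 1 line of its mouse, and the sources used here give neither the length of treatment nor the age of the mice. The labels do not say whether the 4 replicates of a group were separate cultures, so p-values measure the spread between these arrays, which may be technical.

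Interferons act through cell surface receptors and the JAK kinases. Type I interferons act through a complex that holds STAT2 and IRF9 and binds the interferon-stimulated response element (ISRE), while interferon-gamma acts through gamma-activated sites (GAS) and also raises IRF1, which reads ISRE-like sequences. Of the Ifit proteins, Ifit1 binds viral RNA that lacks the cap marks of host messages and holds back its translation. The Mx proteins are dynamin-like GTPases that trap viral nucleocapsids. C57BL/6, like most laboratory strains, is known to carry defective alleles of both Mx genes, and RefSeq lists Mx1 and Mx2 as transcribed pseudogenes in its C57BL/6 assembly. The Oas proteins are synthetases that sense double-stranded RNA and make short oligoadenylates, which act as a second messenger against viral RNA. Oasl1 is an Oas-like protein without synthetase activity that is known to hold back the translation of Irf7, and mouse Oasl2 is an Oas-like protein that has kept synthetase activity.

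The genes sit in clusters. RefSeq (GRCm38.p6) places the 3 Ifit genes on chromosome 19, with Ifit2 and Ifit3 as neighbours, and both Mx genes on chromosome 16. The 5 Oas and Oasl genes lie on chromosome 5, where Oas2 and Oas3 are neighbours and Oas1g lies beside Oas1a. RefSeq promoter windows of 300 bases, from 250 before the transcript start to 50 after it, were used for 7 of the genes, 8 windows in all since Ifit2 has 2 starts. Windows of Mx1, Mx2 and Oas2 were not analysed here. The windows were searched on both strands for the ISRE core, written here as GAAA, any 2 bases and GAAA again (TTTC at both ends when read on the other strand), and for the GAS letters TTCNNNGAA. The ISRE core lies in 3.44% of all 32851 windows of this length, and GAS letters in 8.3%. Counted by gene, over 27025 genes, the shares are 3.99% and 9.55%. Of the 7 genes, 4 had an ISRE core (Ifit1, Ifit3, Oas1a and Oas3) and 2 had GAS letters (Ifit2 and Oas1a). No ISRE match overlapped a GAS match. Ifit1, Ifit3 and Oas1a each had 2 ISRE cores. More than 1 is found in 0.225% of all windows and for 0.266% of genes. Windows of Oasl1 and Oasl2 held neither set of letters. Ifit2, Oasl1 and Oasl2, without an ISRE core in their windows, rose with treatment in every kind of cell as the others did. The 250 bases before the start are shown for the 4 genes with an ISRE core, chosen by that match alone. They are written 5′ to 3′ on the strand of the gene, and capitals mark the ISRE core and, in Oas1a, the GAS letters as well. They lie at chr19:34640639-34640888 (plus strand, Ifit1), chr19:34583279-34583528 (plus strand, Ifit3), chr5:120907526-120907775 (minus strand, Oas1a) and chr5:120777660-120777909 (minus strand, Oas3) of GRCm38.p6.
Ifit1: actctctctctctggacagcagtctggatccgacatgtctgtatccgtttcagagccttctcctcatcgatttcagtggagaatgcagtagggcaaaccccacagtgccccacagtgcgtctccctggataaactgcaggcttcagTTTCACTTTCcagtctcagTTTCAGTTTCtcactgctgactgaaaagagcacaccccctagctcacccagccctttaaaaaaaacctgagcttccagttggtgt
Ifit3: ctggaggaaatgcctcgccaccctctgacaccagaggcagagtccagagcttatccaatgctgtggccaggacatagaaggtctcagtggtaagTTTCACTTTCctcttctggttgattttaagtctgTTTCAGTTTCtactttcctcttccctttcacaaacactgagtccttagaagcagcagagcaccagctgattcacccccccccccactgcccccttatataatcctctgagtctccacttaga
Oas1a: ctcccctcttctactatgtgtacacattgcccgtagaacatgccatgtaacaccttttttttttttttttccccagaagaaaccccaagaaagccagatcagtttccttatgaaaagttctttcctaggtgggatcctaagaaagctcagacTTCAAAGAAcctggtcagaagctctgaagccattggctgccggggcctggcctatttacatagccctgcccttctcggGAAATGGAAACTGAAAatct
Oas3: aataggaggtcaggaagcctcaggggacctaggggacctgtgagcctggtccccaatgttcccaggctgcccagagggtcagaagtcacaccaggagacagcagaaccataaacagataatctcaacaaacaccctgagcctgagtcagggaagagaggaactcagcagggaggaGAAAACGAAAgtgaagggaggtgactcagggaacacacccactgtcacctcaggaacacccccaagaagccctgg
The matches lie 104 to 95 and 85 to 76 bases before the start in Ifit1, and 156 to 147 and 122 to 113 bases before it in Ifit3. Those of Oas1a overlap each other, at 20 to 11 and 14 to 5 bases before the start, with its GAS letters at 98 to 90. Oas3 has its match at 75 to 66 bases before the start. In the first window of Ifit2 the GAS letters stand 241 to 233 bases before the start. A match is a description of the letters and shows no binding. A window without a match may still hold an element whose letters depart from those searched. The part of these letters in the responses was not tested.

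**Figure D1:**
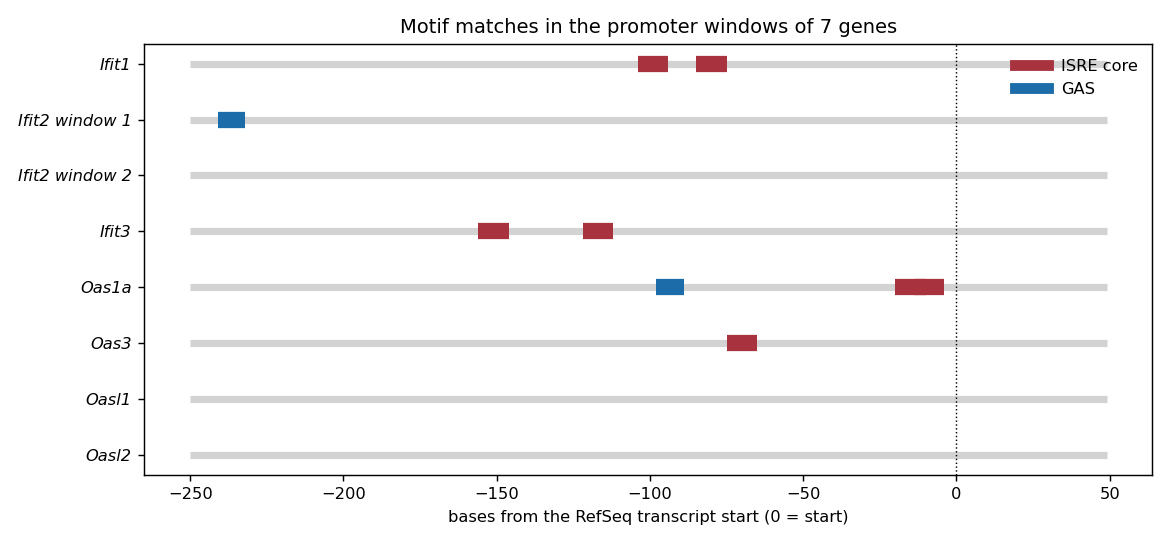
Positions of ISRE core (red) and GAS (blue) matches in the 8 promoter windows of 7 genes, in bases from the RefSeq transcript start (dotted line at 0); grey bars are the windows of 300 bases. Ifit1, Ifit3 and Oas1a have 2 ISRE cores each, the 2 of Oas1a overlapping, Oas3 has 1, and Ifit2 and Oas1a have GAS letters.

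Array medians lay between 5 and 5.19 on the log2 scale. The 8 macrophage markers averaged 11.93 to 12.28 on the macrophage arrays and 4.16 to 4.62 on those of the lines. T cell markers, of which 7 were measured, averaged 3.73 to 4.49 on all arrays. The lines carried keratin Krt19, with group means of 11.31 to 12.12 against 4.13 and 4.32 in macrophages. Epcam, which defines most epithelia, had group means of 3.67 to 3.79 in every group, and Cdh1 was 4.3 to 4.5 in the lines against 6.65 and 7.25 in macrophages. Krt8 and Krt14 averaged 9.25 and 11.12 in C57epi.1 in media, 5.67 and 7.94 in Bm12.4, and 5.38 and 4.81 in macrophages, while the 8 stromal markers averaged 9 to 10.22 on arrays of the lines. In media, replicates 3 and 4 of both lines stood apart from replicates 1 and 2: the 11 cell cycle markers averaged 7.51 against 10.06 in Bm12.4 and 9.26 against 10.33 in C57epi.1. Stromal markers went the other way, averaging 9.83 against 9.02 in Bm12.4 and 10.17 against 9.34 in C57epi.1. Values from replicates 1 and 2 alone and from replicates 3 and 4 alone are therefore given beside the results in which they differ most.

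The first comparison asked how the supernatant moved the effector genes in each kind of cell. All 10 rose in each of the 3 kinds (limma, Benjamini-Hochberg adjusted p under 0.05 over all genes). Of all genes, 8.85% were called higher in C57epi.1, 4.54% in Bm12.4 cells and 6.13% in macrophages. The median response of the 10 genes was 5.54 on the log2 scale in C57epi.1, 4.04 in Bm12.4 cells and 4.55 in macrophages, where the median of all genes was -0.05, -0.05 and -0.02. A response of at least 16-fold was reached by 9 of the genes in C57epi.1, 5 in Bm12.4 cells and 6 in macrophages, beside 0.346%, 0.271% and 0.181% of all genes. In each kind the 4 treated arrays of all 10 genes lay above the 4 media arrays, which held for 9.2%, 5.18% and 9.33% of all genes. For 9 of the 10 genes, all 12 treated arrays lay above all 12 media arrays whatever the cell, a separation shown by 0.808% of genes. Oas2 is the exception, since its highest media array, 7.95 in Bm12.4, lay above its lowest treated array, 7.64 in macrophages. The calls of all 10 genes in all 3 kinds held with replicates 1 and 2 alone, with replicates 3 and 4 alone and without any 1 array. Marker lists changed with treatment as well. In C57epi.1, 4 of 8 stromal markers were lower, Pdgfra most at -2.18, and 3 of 7 plasmacytoid dendritic cell markers were higher, Pacsin1 most at 2.62. In macrophages, 4 of 11 cell cycle and 3 of 8 stromal markers were lower, and 2 of the 7 plasmacytoid markers were higher. Their part in the responses was not tested. In RNA from whole cultures, a change in the number of cells that hold a transcript and a change in RNA per cell cannot be told apart.

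**Figure D2:**
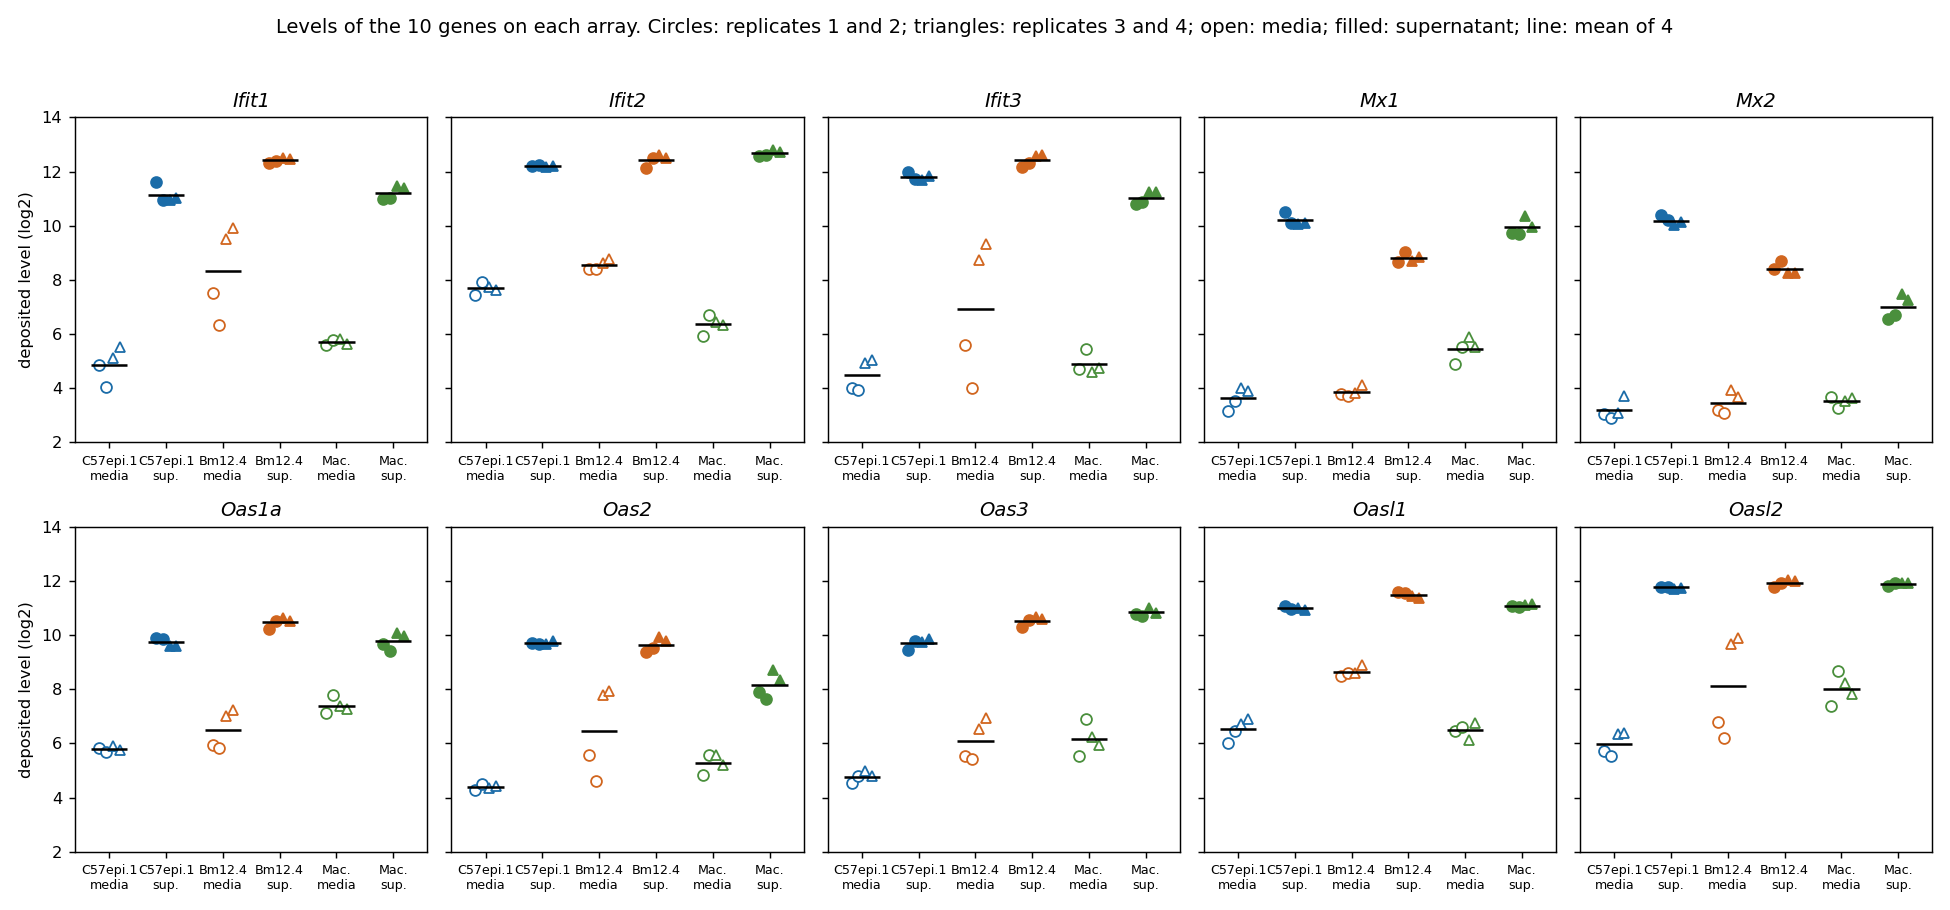
Deposited log2 level of each of the 10 genes on each of the 24 arrays, by kind of cell and treatment (Mac., macrophages; sup., supernatant); circles are replicates 1 and 2, triangles replicates 3 and 4, open symbols media, filled symbols supernatant, and lines the mean of 4. Treated arrays lie above the media arrays of their own kind for every gene, and the open triangles of Bm12.4 lie above its open circles most widely for Ifit1, Ifit3, Oas2 and Oasl2.

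**Figure D3:**
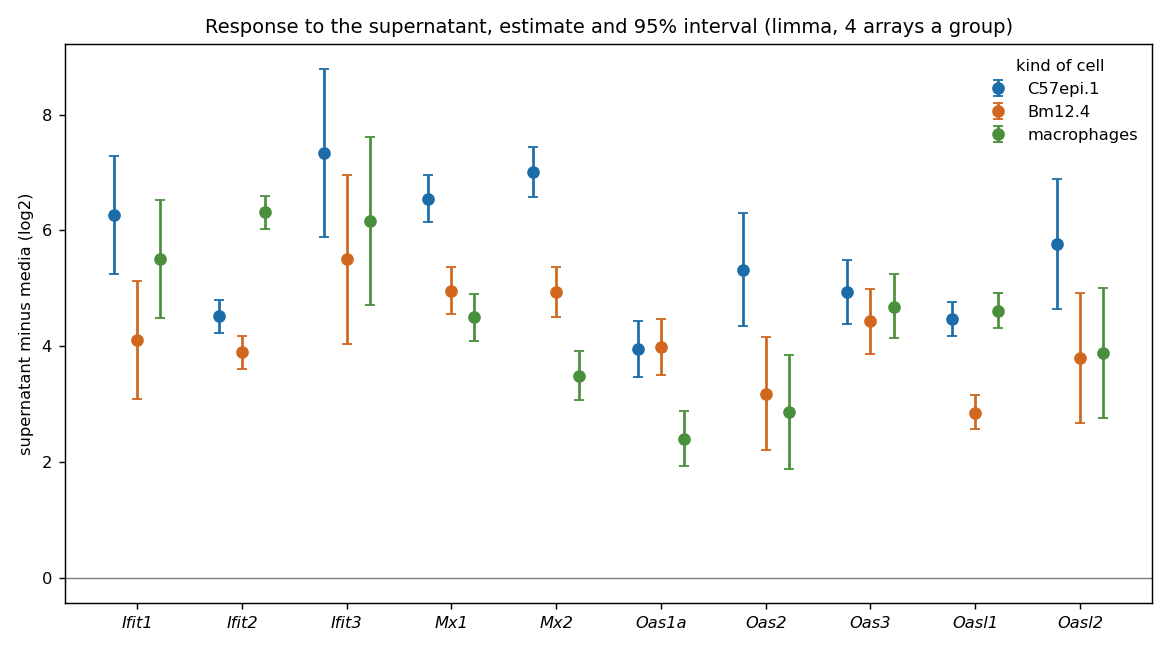
Response to the supernatant, as the log2 difference between treated and media means of 4 arrays each, with its 95% interval from limma, for the 10 genes in C57epi.1 (blue), Bm12.4 (orange) and macrophages (green). All 30 measured differences lie above 0, from 2.39 for Oas1a in macrophages to 7.33 for Ifit3 in C57epi.1. Those of Mx2, and of Mx1 in the lines, are lower bounds, and others that start from low media levels may be.

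Ifit2, an RNA-binding Ifit protein, had the smallest standard error of the Ifit genes. In media its log2 levels were 7.45, 7.92, 7.74 and 7.61 in C57epi.1, for replicates 1 to 4. Bm12.4 read 8.40, 8.39, 8.63 and 8.77, and macrophages 5.93, 6.71, 6.44 and 6.34. The media groups did not overlap, with Bm12.4 highest and macrophages lowest. Treated C57epi.1 read 12.20, 12.24, 12.16 and 12.19. Treated Bm12.4 read 12.13, 12.51, 12.61 and 12.50, and treated macrophages 12.57, 12.61, 12.80 and 12.71. Macrophages, lowest in media, had the highest mean of the treated groups, where their arrays overlapped those of Bm12.4. That order depends on the scaling: treated Bm12.4 minus treated macrophages was -0.24 (limma adjusted p = 0.183) and 0.21 after quantile normalization (limma adjusted p = 0.307). The response was 4.52 in C57epi.1 (SE 0.136, 22.9-fold, limma adjusted p = 1.43e-16). In Bm12.4 it was 3.89 (14.8-fold, limma adjusted p = 2.94e-15). Macrophages gave 6.32 (79.8-fold, limma adjusted p = 7.82e-19), the 6th largest response among all genes in these cells.

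Ifit3, a binding partner of other Ifit proteins, had the largest measured difference of the 10 genes, in C57epi.1. That of Mx2 there is a lower bound, as given below, so the 2 cannot be ranked. Low media levels in C57epi.1 and macrophages have no test against background, so the differences of Ifit3 there may be lower bounds too. Media levels of Ifit3 in C57epi.1 were 4.01, 3.93, 4.94 and 5.02. In macrophages they were 4.72, 5.44, 4.60 and 4.74. In Bm12.4 they were 5.61, 4.02, 8.74 and 9.33, so that replicates 3 and 4 lay far above replicates 1 and 2. With treatment C57epi.1 read 11.99, 11.71, 11.68 and 11.83. Bm12.4 read 12.16, 12.33, 12.59 and 12.60, and macrophages 10.82, 10.86, 11.24 and 11.23. The treated groups did not overlap, with Bm12.4 highest. The response was 7.33 in C57epi.1 (SE 0.7, 161-fold, limma adjusted p = 6.26e-08) and the 5th largest among all genes there. It was 6.16 in macrophages (71.6-fold, limma adjusted p = 8.1e-07). In Bm12.4 it was 5.5 (45.1-fold, limma adjusted p = 7.03e-06), with 7.43 from replicates 1 and 2 alone and 3.56 from replicates 3 and 4 alone. The media arrays of Bm12.4 widen the standard error of Ifit3 in every comparison, since all groups share one residual.

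Ifit1, the cap-sensing member, followed Ifit3. Media levels ran from 4.03 to 5.50 in C57epi.1 and from 5.61 to 5.80 in macrophages. Those of C57epi.1 have no test against background, so the Ifit1 response there may be a lower bound. Bm12.4 read 7.50, 6.33, 9.51 and 9.92, above every media array of both other kinds. Treated arrays ran from 10.95 to 11.61 in C57epi.1, from 12.32 to 12.50 in Bm12.4 and from 10.99 to 11.47 in macrophages. Treated Bm12.4 lay above the other treated groups, which overlapped. The response of Ifit1 was 6.27 in C57epi.1 (SE 0.49, 77.2-fold, limma adjusted p = 2.28e-09), 4.1 in Bm12.4 (17.1-fold) and 5.51 in macrophages (45.6-fold). In Bm12.4 it was 5.44 from replicates 1 and 2 alone and 2.77 from replicates 3 and 4 alone.

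Mx1, a GTPase known for its action against influenza virus in mice with an intact allele, had low media levels in both lines. They were 3.17, 3.51, 4.02 and 3.91 in C57epi.1 and 3.78, 3.71, 3.83 and 4.10 in Bm12.4. Macrophages read 4.88, 5.50, 5.87 and 5.51 in media, above every array of the lines. Treated C57epi.1 read 10.51, 10.09, 10.08 and 10.10. Treated Bm12.4 read 8.65, 9.04, 8.70 and 8.84, and treated macrophages 9.74, 9.70, 10.35 and 9.96. Here treated Bm12.4 was lowest, below every array of both other treated groups. The media levels of the lines cannot be told from background, so their differences are lower bounds: 6.54 in C57epi.1 (at least 93.2-fold, limma adjusted p = 1.43e-16) and 4.95 in Bm12.4 (at least 31-fold). The response in macrophages was 4.5 (22.6-fold).

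Mx2 lay too low in media to be told from background in any kind, and its treated levels differed between the kinds. Its media arrays read 3.04, 2.89, 3.09 and 3.69 in C57epi.1. They read 3.19, 3.08, 3.92 and 3.68 in Bm12.4 and 3.67, 3.27, 3.51 and 3.62 in macrophages. All 3 media groups overlapped, at levels that cannot be told from background. Treated C57epi.1 read 10.40, 10.21, 10.01 and 10.13. Treated Bm12.4 read 8.40, 8.68, 8.27 and 8.26, and treated macrophages 6.55, 6.70, 7.49 and 7.27. The treated groups formed 3 separate steps. Since the media levels may be background, the measured differences are lower bounds of the response. They were 7.01 in C57epi.1 (at least 129-fold, limma adjusted p = 1.43e-16), 4.94 in Bm12.4 (at least 30.6-fold, limma adjusted p = 3.61e-14) and 3.48 in macrophages (at least 11.2-fold, limma adjusted p = 2.14e-11). The array measures RNA, and for both Mx genes it says nothing of protein.

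Oas1a, a synthetase of the Oas1 group, had the smallest response of the 10 genes in macrophages. Its media levels were 5.84, 5.69, 5.90 and 5.76 in C57epi.1. They were 5.96, 5.82, 7.0 and 7.22 in Bm12.4 and 7.14, 7.78, 7.37 and 7.28 in macrophages. C57epi.1 lay below macrophages, and Bm12.4 overlapped both. Treated arrays ran from 9.61 to 9.91 in C57epi.1, from 10.24 to 10.65 in Bm12.4 and from 9.43 to 10.09 in macrophages. The response of Oas1a was 3.95 in C57epi.1 (SE 0.231, 15.4-fold, limma adjusted p = 1.41e-11), 3.98 in Bm12.4 (15.8-fold) and 2.39 in macrophages (5.26-fold). The Oas1 genes are close paralogs, and signal may be shared between their probe sets.

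Oas2 and Oas3, the larger synthetases, responded unequally in macrophages. Oas2 read 4.29 to 4.49 in media in C57epi.1 and 4.84 to 5.57 in macrophages. The C57epi.1 levels have no test against background, so the Oas2 response there may be a lower bound. Its Bm12.4 media arrays read 5.56, 4.61, 7.79 and 7.95, with replicates 3 and 4 above every other media array. Treated Oas2 arrays read 9.71, 9.68, 9.68 and 9.78 in C57epi.1, and 9.37, 9.54, 9.92 and 9.78 in Bm12.4. Treated macrophages read 7.89, 7.64, 8.73 and 8.36, below every treated array of the lines. The Oas2 response was 5.32 in C57epi.1 (SE 0.471, 39.9-fold), 3.17 in Bm12.4 (9.03-fold) and 2.86 in macrophages (7.27-fold). In Bm12.4 it was 4.37 from replicates 1 and 2 alone and 1.98 from replicates 3 and 4 alone. Oas3 media levels ran from 4.54 to 4.97 in C57epi.1, from 5.43 to 6.95 in Bm12.4 and from 5.52 to 6.90 in macrophages. Treated Oas3 arrays ran from 9.44 to 9.87 in C57epi.1, from 10.32 to 10.66 in Bm12.4 and from 10.71 to 11.02 in macrophages. Those groups did not overlap, and macrophages were highest. The Oas3 response was 4.93 in C57epi.1 (SE 0.268, 30.6-fold), 4.43 in Bm12.4 (21.5-fold) and 4.68 in macrophages (25.7-fold). Its low C57epi.1 media levels have no test against background, so the response there may be a lower bound.

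Oasl1, the Oas-like protein without synthetase activity, had its highest media level in Bm12.4. Its media arrays read 6.03, 6.46, 6.71 and 6.91 in C57epi.1. They read 8.48, 8.59, 8.62 and 8.89 in Bm12.4 and 6.47, 6.60, 6.13 and 6.74 in macrophages. C57epi.1 and macrophages overlapped, and every Bm12.4 array lay above both. Treated arrays ran from 10.92 to 11.08 in C57epi.1, from 11.39 to 11.60 in Bm12.4 and from 11.04 to 11.16 in macrophages. The Oasl1 response was 4.47 in C57epi.1 (SE 0.143, 22.1-fold, limma adjusted p = 2.77e-16), 2.85 in Bm12.4 (7.22-fold) and 4.61 in macrophages (24.4-fold). Oasl2, the other Oas-like gene, reached like levels in all treated groups. Treated Oasl2 arrays ran from 11.72 to 11.79 in C57epi.1, from 11.78 to 12.03 in Bm12.4 and from 11.82 to 11.94 in macrophages. Media levels of Oasl2 were 5.71, 5.52, 6.36 and 6.40 in C57epi.1 and 7.38, 8.69, 8.22 and 7.81 in macrophages. In Bm12.4 they were 6.79, 6.21, 9.66 and 9.90, on either side of the macrophage arrays. The Oasl2 response was 5.77 in C57epi.1 (SE 0.541, 54.4-fold), 3.8 in Bm12.4 (13.9-fold) and 3.88 in macrophages (14.7-fold). The value in Bm12.4 lies between 5.35 from replicates 1 and 2 alone, above macrophages (3.84 from the same replicates), and 2.24 from replicates 3 and 4 alone, below them (3.92). For the other genes, the Bm12.4 responses from replicates 1 and 2 and from replicates 3 and 4 were 4.96 and 3.89 for Oas3, 4.48 and 3.47 for Oas1a, 5.41 and 4.47 for Mx2, 5.1 and 4.8 for Mx1, 3.93 and 3.86 for Ifit2, and 3.05 and 2.65 for Oasl1. In C57epi.1 the widest gap was for Ifit1, with 6.84 and 5.7.

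Whether responses differed between the kinds was tested directly, as differences between responses. C57epi.1 had the largest estimate for 7 of the genes, macrophages for 2 (Ifit2 and Oasl1) and Bm12.4 for 1 (Oas1a). For Oas1a the lines differed by only -0.03. The probe set of both Oas1a and Oas1g, described below, had its larger estimate in C57epi.1. Against macrophages, 5 of the genes differed in C57epi.1, beside 9.93% of all genes. For both Mx genes, differences between responses compare measured differences that are themselves bounds (Mx2 in all kinds, Mx1 in the lines). The treated levels of Mx2 by themselves differed by 3.19 between C57epi.1 and macrophages. The measured difference of Mx2 was larger in C57epi.1 by 3.53 (SE 0.292, limma adjusted p = 2.28e-08) and that of Mx1 by 2.04 (SE 0.275, limma adjusted p = 2.56e-05). Oas2 responded more in C57epi.1 by 2.46 (SE 0.666, limma adjusted p = 0.0197), and so did Oas1a, by 1.55 (SE 0.327, limma adjusted p = 0.00292). Ifit2 went the other way, at -1.8 (SE 0.193, limma adjusted p = 1.09e-06). Replicates 1 and 2 alone and replicates 3 and 4 alone each called these 5 genes in the same direction, along with Oasl2. In media and treated, C57epi.1 minus macrophages was -1.59 and -0.04 for Oas1a, and -1.79 and 0.26 for Mx1. It was -0.9 and 1.56 for Oas2, and 1.32 and -0.48 for Ifit2. Treated levels of Oas1a and Mx1 were not called different (limma adjusted p = 0.906 and 0.312), so their response differences lay mostly in media.

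In Bm12.4 against macrophages, 4 of the genes differed in response, beside 5.64% of all genes. Ifit2 responded less in Bm12.4, at -2.43 (SE 0.193, limma adjusted p = 1.28e-08), and Oasl1 too, at -1.76 (SE 0.202, limma adjusted p = 3.47e-06). Oas1a responded more, by 1.58 (SE 0.327, limma adjusted p = 0.00334), and the measured difference of Mx2 was larger by 1.45 (SE 0.292, limma adjusted p = 0.00266). With replicates 3 and 4 alone the Mx2 difference was 0.65 (limma adjusted p = 0.126). In media and treated, Bm12.4 minus macrophages was 2.19 and -0.24 for Ifit2, and 2.16 and 0.4 for Oasl1. It was -0.89 and 0.69 for Oas1a, and -0.05 and 1.4 for Mx2. Ifit2 and Oasl1 thus stood higher in Bm12.4 in media, and treated Oasl1 was still higher there. The other 6 genes did not pass the test. Oas3 is among them, at -0.25 with a 95% interval of -1.04 to 0.53, while Ifit3 had an interval of -2.72 to 1.39. Without replicate 2 of Bm12.4 in media, Ifit1 passed as well, at -2.07 (limma adjusted p = 0.018). With replicates 3 and 4 alone, 8 of the genes passed, beside 1834 of all 19938 genes. Oas2 stood at -1.18 there (limma adjusted p = 0.00285), against 1.8 (limma adjusted p = 0.0123) with replicates 1 and 2 alone, a call in the opposite direction. Ifit3 stood at 1.67 with replicates 1 and 2 and -3.01 with replicates 3 and 4, and Oasl2 at 1.51 and -1.67, of which only the latter values were called.

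Between the lines, 3 of the genes differed in response, beside 4.03% of all genes. All 3 had the larger measured difference in C57epi.1: Mx2 by 2.08 (SE 0.292, limma adjusted p = 0.000158), Oasl1 by 1.61 (SE 0.202, limma adjusted p = 3.96e-05) and Mx1 by 1.59 (SE 0.275, limma adjusted p = 0.00148). These 3 were called with replicates 1 and 2 alone and with replicates 3 and 4 alone. In media and treated, C57epi.1 minus Bm12.4 was -2.12 and -0.5 for Oasl1, which thus stayed lower in treated C57epi.1. It was -0.29 and 1.79 for Mx2, and -0.2 and 1.39 for Mx1. Oas1a differed by -0.03, with a 95% interval of -0.71 to 0.65. Ifit1 (2.17, limma adjusted p = 0.086), Oas2 (2.14, limma adjusted p = 0.0753) and Ifit2 (0.63, limma adjusted p = 0.072) did not pass. The count depends on single media arrays. Leaving out 1 array also moved the count over all genes, between 534 and 1263. Without replicate 2 of Bm12.4 in media, 7 genes passed, Ifit1 at 2.83 (limma adjusted p = 0.00289), Ifit3 at 2.8 (0.0314), Oas2 at 2.77 (0.00296) and Oasl2 at 2.61 (0.022) being added. Without replicate 1 of Bm12.4 in media, Oas2 passed at 2.45 (limma adjusted p = 0.0475). Ifit2 passed without replicate 2 of C57epi.1 in media (0.71, limma adjusted p = 0.0325) or replicate 1 of macrophages in media (0.63, limma adjusted p = 0.0352). The 3 differences share arrays, since each kind of cell enters 2 of them.

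**Figure D4:**
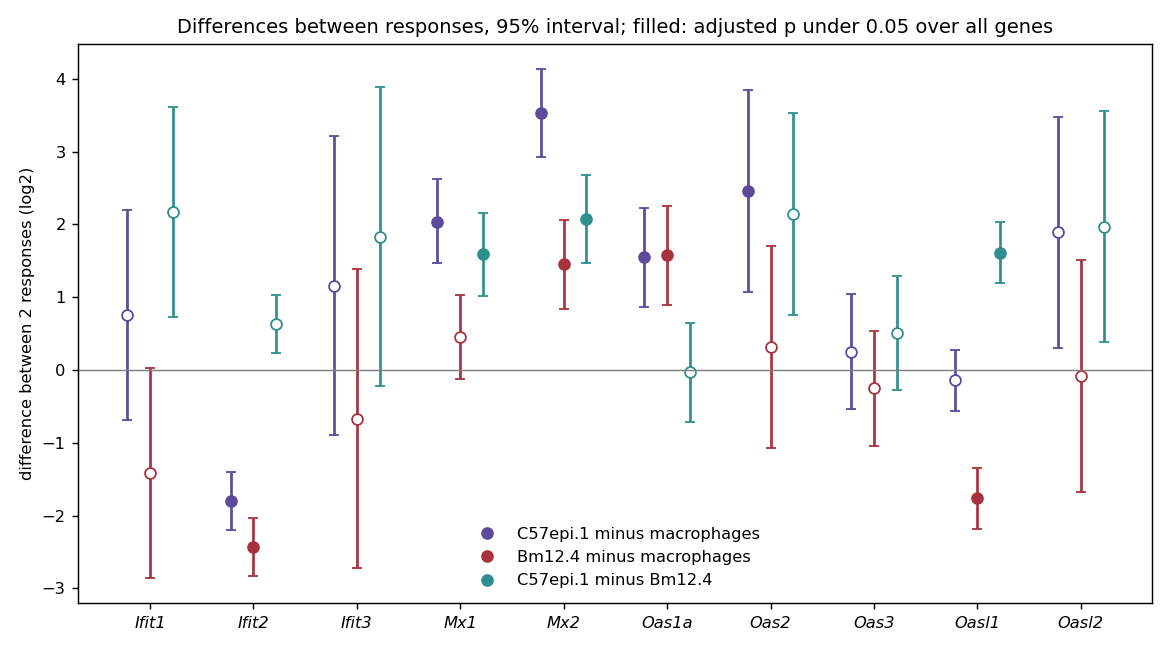
Difference between the responses of 2 kinds of cell (log2), with its 95% interval from limma, for the 10 genes; filled circles have an adjusted p under 0.05 over all genes. Ifit2 lies below 0 in both lines against macrophages, Mx2 lies above 0 in all 3 differences, and the widest intervals are those of Ifit3.

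Untreated cells were compared next. C57epi.1 against macrophages in media called 5 of the genes, 1 higher and 4 lower, beside 44.5% of all genes in either direction. Ifit2 was higher in C57epi.1 by 1.32 (limma adjusted p = 1.85e-08). Oasl2 was lower at -2.03 (limma adjusted p = 0.00335), Mx1 at -1.79 (4.62e-08), Oas1a at -1.59 (3.49e-06) and Oas3 at -1.39 (0.00014). The Mx1 levels of C57epi.1 in media, and the Mx2 levels of both kinds, cannot be told from background. Mx2 would be called lower without replicate 4 of C57epi.1 in media (-0.51, limma adjusted p = 0.0494). So would Oas2 without replicate 2 of Bm12.4 in media, which enters through the shared residual (-0.9, limma adjusted p = 0.0379). With replicates 1 and 2 alone 9 of the genes were called, and with replicates 3 and 4 alone 7. Over the alternatives other than leaving out 1 array, 7621 to 11574 of all 19938 genes were called.

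In Bm12.4 against macrophages in media, 7 of the genes were called, 5 higher and 2 lower, beside 42.8% of all genes in either direction. Ifit1 was higher by 2.61 (limma adjusted p = 0.000106), Ifit2 by 2.19 (2.87e-12) and Oasl1 by 2.16 (8.61e-12). Mx1 was lower at -1.59 (limma adjusted p = 3.26e-07) and Oas1a at -0.89 (0.00272). The Mx1 levels of Bm12.4 in media cannot be told from background. Oas1a was not called with replicates 3 and 4 alone (-0.22, limma adjusted p = 0.166; -1.57 with replicates 1 and 2) or with only the arrays of these groups (limma adjusted p = 0.0551). Ifit3, at 2.05 (limma adjusted p = 0.0204), was not called without replicate 3 (1.45, limma adjusted p = 0.101) or replicate 4 (1.25, limma adjusted p = 0.115) of Bm12.4 in media. Oas2, at 1.19 (limma adjusted p = 0.0467), was not called on leaving out any 1 of 20 of the 24 arrays, with values of 0.69 to 1.28 and adjusted p of 0.0515 to 0.227. Within replicates 1 and 2, Ifit3 stood at -0.26 and Oas2 at -0.12, and within replicates 3 and 4 at 4.36 and 2.49.

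Between the lines in media, limma called 8 of the genes, all lower in C57epi.1 and 0 higher, beside 24.4% of all genes in either direction. At an unadjusted p under 0.05 too, 0 of the genes were higher in C57epi.1. Ifit1 differed by -3.45 (limma adjusted p = 8.46e-06), Ifit3 by -2.45 (0.0113), Oasl2 by -2.14 (0.00442) and Oasl1 by -2.12 (5.33e-11). Oas2 differed by -2.08 (limma adjusted p = 0.00168), Oas3 by -1.33 (0.000527), Ifit2 by -0.87 (3.12e-05) and Oas1a by -0.7 (0.0283). Mx1 (-0.2, 95% interval -0.61 to 0.2) and Mx2 (-0.29, 95% interval -0.72 to 0.14) did not pass. Their media levels in the lines cannot be told from background. With replicates 1 and 2 alone, 3 genes were called: Ifit1 at -2.47, Oasl1 at -2.29 and Ifit2 at -0.71. Oas2 stood at -0.69 there (limma adjusted p = 0.11), Oasl2 at -0.88 (0.0731) and Oas3 at -0.81 (0.103). With replicates 3 and 4 alone, 8 were called, with Ifit1 at -4.41, Ifit3 at -4.06, Oas2 at -3.48 and Oasl2 at -3.4. Over the alternatives other than leaving out 1 array, 3007 to 6387 of all 19938 genes were called here. The shared residual pools groups of unequal spread, with an Oas2 SD of 1.66 in Bm12.4 media and 0.09 in C57epi.1 media. With only the arrays of these groups, Oas2 (limma adjusted p = 0.0896), Oasl2 (0.14), Ifit3 (0.209) and Oas1a (0.202) were not called. The call of Ifit3 was lost without replicate 3 (-1.85, limma adjusted p = 0.0609) or 4 (-1.65, 0.0612) of Bm12.4. That of Oas1a was lost without replicate 3 (-0.54, limma adjusted p = 0.123) or 4 (-0.46, 0.144) of Bm12.4, and without replicate 2 (-0.67, 0.0621) or 4 (-0.69, 0.0574) of C57epi.1.

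The split among the Bm12.4 media arrays was wide in 4 of the genes. The mean of replicates 3 and 4 exceeded that of replicates 1 and 2 by 4.22 for Ifit3, 3.28 for Oasl2, 2.8 for Ifit1 and 2.79 for Oas2. Only 0.401% of all genes differed upwards by more than 2 there. Oas3 at 1.26 and Oas1a at 1.22 came next, which makes 6 genes over 1, beside 3.07% of all genes. Mx2 differed by 0.66, Ifit2 by 0.3, and Mx1 and Oasl1 by 0.22 each. In media C57epi.1, the median over the 10 genes was 0.5 and the largest value 1.01, for Ifit3. In treated Bm12.4 the median was 0.18, in treated macrophages 0.42 and in media macrophages 0.01. On Bm12.4 media replicates 3 and 4 the cell cycle markers were lower and the stromal markers higher, as given above. The 28 other interferon-induced antiviral genes averaged 8.07 there and 6.83 on replicates 1 and 2, interferon signalling genes 8.74 and 7.76, and RNA-sensing genes 7.8 and 6.82. The part of these lists in the difference was not tested. The labels give no batch, date or passage for these arrays.

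**Figure D5:**
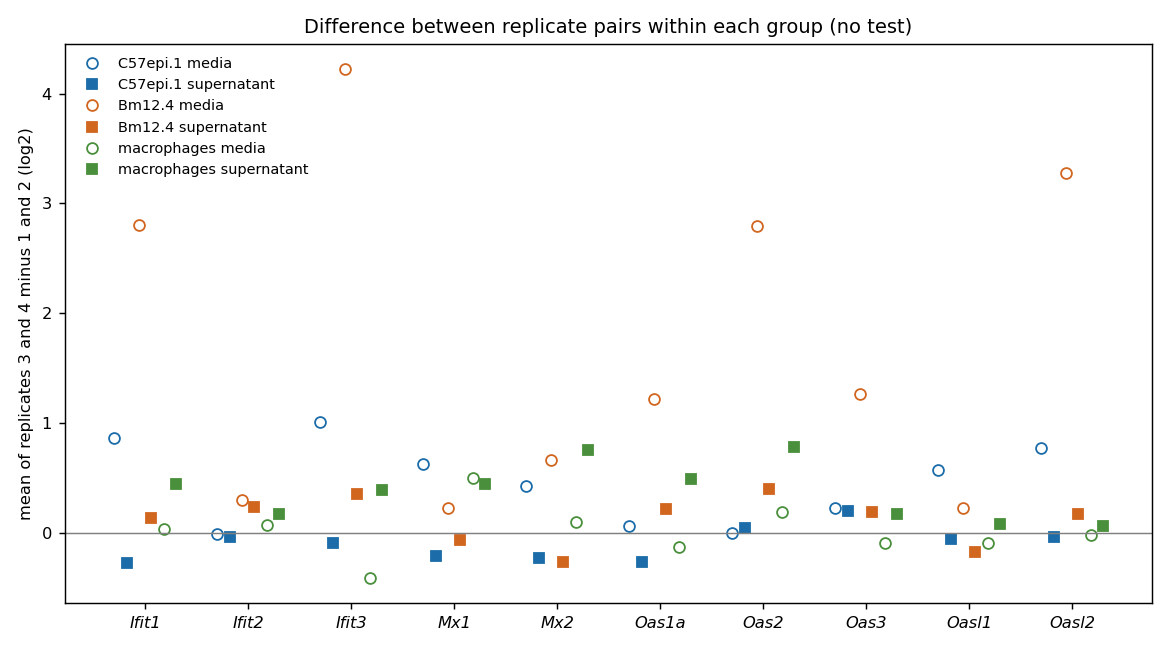
Mean of replicates 3 and 4 minus mean of replicates 1 and 2 (log2) for each of the 10 genes within each of the 6 groups; circles are media, squares supernatant; no test was made. Ifit3, Oasl2, Ifit1 and Oas2 in media Bm12.4 lie between 2.79 and 4.22, and no other point lies above 1.26.

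Treated cells were then compared with each other. By the range of the 3 means, the kinds lay closer together in supernatant than in media for 9 of the 10 genes, beside 44.4% of all genes. With replicates 1 and 2 alone this held for 7 of the 10, since Ifit3 ranged over 1.11 in media and 1.4 in supernatant and Oas2 over 0.81 and 1.93. The share of all genes was then 44.3%. For Oasl2 that range was 2.14 in media and 0.18 in supernatant, and for Ifit2 it was 2.19 and 0.48. Mx2 was the exception under all arrays and under each replicate set, with 0.34 in media and 3.18 in supernatant. The media levels of Mx2 cannot be told from background, so 0.34 does not show how far the kinds differ in media. In C57epi.1 against macrophages, 4 of the genes were called, 2 higher and 2 lower, beside 47.0% of all genes in either direction. Mx2 was higher by 3.19 (SE 0.206, limma adjusted p = 5.97e-12) and Oas2 by 1.56 (SE 0.471, limma adjusted p = 0.00829). Oas3 was lower at -1.13 (limma adjusted p = 0.00107). Ifit2 was lower at -0.48 (limma adjusted p = 0.0056), which quantile normalization between arrays reduced to -0.02 (limma adjusted p = 0.945).

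In treated Bm12.4 against treated macrophages, 5 of the genes were called, 4 higher and 1 lower, beside 43.8% of all genes in either direction. Oas2 was higher by 1.5 (limma adjusted p = 0.0118), Mx2 by 1.4 (4.61e-06), Oas1a by 0.69 (0.0176) and Oasl1 by 0.4 (0.0248), and Mx1 was lower at -1.13 (3.57e-05). Oas1a lost its call without treated macrophage replicate 2 (0.57, limma adjusted p = 0.0707). Oasl1 lost it without replicate 1 (0.39, limma adjusted p = 0.0509) or 2 (0.38, 0.0568) of treated macrophages, and without replicate 1 (0.37, 0.0664) or 2 (0.38, 0.0611) of treated Bm12.4. Ifit1, at 1.2 (limma adjusted p = 0.0527), was called without any 1 of 5 media arrays, among them Bm12.4 replicate 2 (0.00738), without which Ifit3 was called too (1.38, limma adjusted p = 0.0245).

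Between the treated lines, 5 of the genes were called, 2 higher in C57epi.1 and 3 lower, beside 29.9% of all genes in either direction. Both Mx genes were the higher ones, Mx2 by 1.79 (SE 0.206, limma adjusted p = 3.49e-07) and Mx1 by 1.39 (SE 0.195, limma adjusted p = 5.45e-06). Oas3 was lower at -0.82 (limma adjusted p = 0.0214), Oas1a at -0.73 (0.0178) and Oasl1 at -0.5 (0.00837). Oasl2 differed by -0.17 (95% interval -1.3 to 0.95), though its arrays spread little, since its interval carries the spread of the Bm12.4 media arrays. The call of Oas3 was lost without treated C57epi.1 replicate 1 (-0.74, limma adjusted p = 0.0685), or treated Bm12.4 replicate 3 (-0.78, 0.0563) or 4 (-0.8, 0.0505). Oas1a lost its call without treated Bm12.4 replicate 3 (-0.68, limma adjusted p = 0.0546). Ifit1, at -1.27 (limma adjusted p = 0.0544), was called without any 1 of 5 media arrays (adjusted p 0.00717 to 0.0476).

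Relatives outside the 10 genes were mixed. Ifit3b, a close copy of Ifit3, rose by 5.65 in C57epi.1, 5.17 in Bm12.4 cells and 3.63 in macrophages, and Ifit1bl2 by 2.43, 3.05 and 1.31. Of 8 measured genes of the Oas pathway outside the 10, 3 rose in each kind, and limma called 0 lower, as did an unadjusted p under 0.05. Oas1b rose by 3.88, 3.78 and 2.31 and Oas1c by 1.39, 2.23 and 1.15. The third was Pde12 in C57epi.1 (0.77), Oas1d in Bm12.4 (0.52) and Oas1f in macrophages (0.3). The other 5 in each kind did not pass, and the paralogs Oas1d, Oas1e, Oas1f and Oas1h had group means of 2.86 to 3.87 throughout. Signal may be shared between such copies.

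Upstream genes were described from a list of interferon signalling components, of which 17 were measured. In C57epi.1 10 rose and 4 fell, in Bm12.4 10 rose and 0 fell, and in macrophages 9 rose and 1 fell. At an unadjusted p under 0.05, limma had 1 of them lower in Bm12.4. Of all genes, 10.4% were called lower in C57epi.1, 2.7% in Bm12.4 cells and 6.31% in macrophages. Irf7, the factor that amplifies interferon production and whose translation Oasl1 restrains, rose by 5.4 in C57epi.1, 4.05 in Bm12.4 cells and 5.39 in macrophages. Stat2 rose by 3.39, 3.17 and 2.94. Its partner Irf9 rose by 2.56 in C57epi.1 and 1.85 in Bm12.4, and stood at 1.06 in macrophages (limma adjusted p = 0.103). Macrophage arrays of Irf9 did not overlap, at 7.95 to 8.31 in media and 9.15 to 9.27 treated. The shared residual of Irf9 carries the spread of the lines in media (SD 1.27 in Bm12.4 and 0.82 in C57epi.1). Irf1, a direct target of interferon-gamma, rose by 3.55, 2.41 and 3.87. Usp18, a brake on the type I receptor, rose by 6.57, 5.09 and 3.52, and its response was larger in C57epi.1 than in macrophages by 3.05 (limma adjusted p = 0.000416). The C57epi.1 media arrays of Usp18, at 3.97 to 4.47, have no test against background, so 6.57 and 3.05 may be lower bounds. Treated means of Usp18 were 10.82 in C57epi.1 and 10.91 in macrophages. Socs1, a brake on JAK kinases, rose by 0.98, 1.29 and 2.08, with a smaller response in C57epi.1 than in macrophages (-1.1, limma adjusted p = 0.000743).

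No rise of interferon ligand genes was detected beside that of the effectors. Of 14 measured, 0 were called higher in any kind by limma, and at an unadjusted p under 0.05 the count was 0 as well. In C57epi.1 2 were lower, Ifna5 at -0.42 and Ifnz at -0.85. Ifnb1 differed by 0.17, 0.07 and -0.01 (limma adjusted p of 0.437, 0.855 and 0.983). The ligand list averaged 3.9 to 4.3 on every array, but Ifnz (group means 5.24 to 7.32), Ifnl2 (6.07 to 6.52) and Ifna5 (5.48 to 5.92) stood above that average. Low ligand levels, such as those of Ifnb1 (group means 3.51 to 3.68), cannot be told from background, so a small rise could be missed. Ifnl2 was singled out after its values were seen. Of the receptor chains for type I interferon, Ifnar2 rose by 0.62 in C57epi.1 and 0.8 in Bm12.4, and Ifnar1 fell by 0.54 in C57epi.1.

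Most, but not all, other antiviral and RNA-sensing genes rose in the same comparisons. Of 28 measured interferon-induced antiviral genes outside the families above, 22 rose in C57epi.1, 24 in Bm12.4 cells and 24 in macrophages. By limma 0, 1 and 1 fell, with the same counts lower at an unadjusted p under 0.05, and 6, 3 and 3 were not called. Rsad2, whose product viperin makes a chain-terminating nucleotide, rose by 6.27, 5.86 and 4.84. Of 13 RNA-sensing genes, 11, 12 and 10 rose, and 1 fell in C57epi.1, the adaptor gene Mavs at -0.45. Eif2ak2, the kinase PKR, rose by 1.66, 1.6 and 1.67, nearly alike in the 3 kinds.

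Within the 10 genes, the Pearson correlation of each with the mean of the other 9 over the 24 arrays ran from 0.919 for Mx2 to 0.981 for Ifit3. Among 3213 other genes whose 6 group means ranged over at least 2 log2 units, those most like the mean of the 10 were Xaf1 (r = 0.992), Irgm1 (0.991), Iigp1 (0.99), Ube2l6 (0.988) and Ddx58 (0.988). The 24 arrays share 6 groups, so these values mostly follow the group means.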

How the data were processed

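The values analysed are the deposited log2 expression levels, 1 per probe set and array. The submitters' processing notes name GCOS, Partek 6.2 and RMA, without the order of use or further versions, and the labels' protocols give 100 ng of total RNA per array. RMA aligns array distributions and keeps no detection call, so low levels have no test against background. A response from a low media level may thus be a lower bound, also where this is not said. The number of arrays limits the precision. The table held 28853 probe sets, of which 21789 had 1 gene symbol in the platform annotation. For 999 genes with several, the probe set of highest mean was used, leaving 19938 genes. A single limma fit (version 3.58.1, in R 4.3.3 with statmod 1.5.0) gave all 12 comparisons: a mean per group, lmFit and eBayes, with 18 residual and 3.62 prior degrees of freedom. Tests were two-sided, with Benjamini-Hochberg adjustment across all genes and calls at adjusted p under 0.05. The fit was tested on simulated data. The 10 genes, the gene lists, the rule for named genes (all 10, the 5 genes most like their mean, fixed signalling genes, and up to 2 called genes of other lists) and the alternatives were chosen with earlier results of these data known. Marker genes of cell type were named beside these. Some genes of the lists are not reported here.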

Additional observations from a re-analysis of the deposited data

Results flagged for a closer look

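Of 60 sets of 4 arrays (10 genes in 6 groups), 4 had 1 array far from the other 3 by Dixon's test, where chance alone gives about 1 in 20 sets. In C57epi.1 with supernatant, replicate 1 was high for Ifit1 (11.61) and for Mx1 (10.51). Ifit3 was high in replicate 2 of macrophages in media (5.44), and Oasl2 was low in replicate 1 of treated macrophages (11.82).

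Of 30 tests of a difference between responses, 12 passed at a limma adjusted p under 0.05. C57epi.1 minus macrophages gave -1.8 for Ifit2, 2.04 for Mx1, 3.53 for Mx2, 1.55 for Oas1a and 2.46 for Oas2. Bm12.4 minus macrophages gave -2.43 for Ifit2, 1.45 for Mx2, 1.58 for Oas1a and -1.76 for Oasl1. C57epi.1 minus Bm12.4 gave 1.59 for Mx1, 2.08 for Mx2 and 1.61 for Oasl1. Those of Mx2, and of Mx1 between the lines, rest on media levels that cannot be told from background.

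A probe set annotated to both Oas1a and Oas1g, kept out of the calls and counts above, rose by 6.08 in C57epi.1 (SE 0.4, limma adjusted p = 1.27e-10), 4.74 in Bm12.4 (1.05e-08) and 2.54 in macrophages (8.65e-05). Its media arrays read 4.45, 4.14, 4.93 and 4.85 in C57epi.1, and 5.55, 4.96, 7.60 and 7.66 in Bm12.4. In macrophages they read 7.93, 8.64, 8.19 and 7.99, above all arrays of both lines in media. All 12 treated arrays lay between 10.55 and 11.32.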

How the results depend on the processing

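All 30 treatment calls of the 10 genes held under every alternative run. These were trend and robust moderation, median centring, quantile normalization, a filter on low values, mean of probe sets, all probe sets and array weights. Replicate block, only the groups compared, either replicate set and leaving out each array were run as well. Each of the 10 genes has 1 probe set of a single symbol and passed the filter. The filter, mean of probe sets and all probe sets thus left their levels unchanged, and could act only through the moderation and adjustment. Counts of calls that moved by over 1.5 times are given here, and the cause was not tested. Counts of genes or members that are not given stayed within 1.5 times. With only the arrays of the groups compared, genes called were 786 for treatment in Bm12.4 (1445 with all arrays), 3007 between the lines in media (4873) and 438 for the response difference of the lines (803). Members called there were 4 for Bm12.4 against macrophages in media (7), 4 between the lines in media (8) and 8 for treated Bm12.4 against treated macrophages (5). With replicates 1 and 2 alone, 2245 genes were called for treatment in C57epi.1 (3832) and 426 for the response difference of the lines. Members called were 9 for C57epi.1 against macrophages in media (5) and 3 between the lines in media. With replicates 3 and 4 alone, genes called were 5830 for treatment in C57epi.1, 3189 for treatment in Bm12.4, 4086 and 1834 for the response differences of C57epi.1 (1980) and Bm12.4 (1124) from macrophages, and 2401 for that of the lines. Members called were 7 for treated C57epi.1 against treated macrophages (4), 8 for the response difference of Bm12.4 from macrophages (4) and 9 for that of the lines (3). Array weights called 3752 genes for treatment in macrophages (2482), 3953 for the response difference of C57epi.1 from macrophages and 2426 for that of the lines. The replicate block called 6 members for the response difference of the lines, adding Ifit1 (limma adjusted p = 0.0434), Ifit2 (0.0234) and Oas2 (0.0373), and Ifit1 in treated Bm12.4 against treated macrophages (0.0293) and treated C57epi.1 (0.0288). It moved no other call of the 10 genes. Deviations of same-numbered media and treated arrays correlated at -0.143 to 0.396 in C57epi.1, 0.226 to 0.683 in Bm12.4 cells and -0.134 to 0.118 in macrophages, and best with their own number in 2 of 4 pairs, 4 and 1, so the numbers were not taken to pair arrays across the 3 kinds.

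Leaving out 1 array gave 3 to 7 members for treated Bm12.4 against treated macrophages (3 without treated macrophage replicate 2) and 3 to 6 between the treated lines (3 without treated Bm12.4 replicate 3). For the response difference of the lines it gave 3 to 7 members (7 without Bm12.4 media replicate 2) and 534 to 1263 genes (1263 without C57epi.1 media replicate 2, 534 without its replicate 4). Values reversed in 5 cases. In Bm12.4 against macrophages in media, replicates 1 and 2 gave -0.26 for Ifit3 (limma adjusted p = 0.642), -0.12 for Oas2 (0.793) and -1.54 for Oasl2 (0.00111), and replicates 3 and 4 gave 0.63 for Oas3 (0.00367). The response difference of Oas2 between Bm12.4 and macrophages was -1.18 with replicates 3 and 4 (0.00285). A further 66 of 4200 values changed sign while called in neither setting. The number of arrays, 4 per group and 2 per replicate set, limits these comparisons.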
